A study of Mus musculus with 15 samples.

Results

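Cytosolic ribosomal protein genes were followed across 15 two-colour cDNA arrays that compare a mouse line labelled as lymphoid ES (ES stands for embryonic stem) after treatment with the same line left untreated, both RNAs being hybridised to every array. The members are all genes whose symbol is Rpl or Rps followed by a digit, or Rplp0, Rplp1, Rplp2 or Rpsa, without the 4 Rps6k kinase genes. By this rule, which uses no measured value, 62 of 9834 named genes were chosen, with 94 of 20205 probes. They comprise 31 proteins of the large subunit, 22 of the small subunit, 3 of the ribosomal stalk, 5 paralogues (Rpl7l1, Rpl22l1, Rpl36al, Rpl39l and Rps27l) and 1 gene, Rps19bp1, that encodes a binding partner of Rps19 and no ribosomal protein. Cy5 carried the treated RNA on 8 arrays (titles 1 to 8), and Cy3 carried it on 7 dye swaps (titles 9 to 15). The labels give no agent, dose, duration or genotype, no number of cultures, and no statement of which arrays share an RNA extract. Their protocol mentions homogenised organs and a reference pooled from animals, which does not match a cell line. Replicates are therefore arrays, and a p-value measures only the spread between arrays, which may be technical.

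The cytosolic ribosome is built from ribosomal RNA and about equimolar amounts of its proteins, which are made together and assembled in the nucleolus. Many of their mRNAs are short, abundant and begin with a cytosine and a run of pyrimidines, the terminal oligopyrimidine (TOP) tract, through which mTOR and the binding protein Larp1 govern their translation. Their transcription is promoted by Myc and by ETS-family factors such as Gabpa, and several proteins have further roles: Rpl5, Rpl11 and Rpl23 bind and inhibit Mdm2 when assembly is disturbed, Rpl22 is needed for the development of alpha-beta T cells, and mutation of RPS19 causes Diamond-Blackfan anaemia. Proliferating ES cells and lymphoid precursors make ribosomes at a high rate.

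Sequence at the transcription start was read for 54 of the 62 members from the RefSeq table of mouse promoters (GRCm38.p6), which holds 250 bases before and 50 after each start. The members without an entry are Rpl7, Rpl8, Rpl30, Rpl32, Rplp1, Rps14, Rps20 and Rps29. A TOP-like start, taken as a C at the first transcribed base that opens a run of at least 5 C or T bases counted from there onward, with pyrimidines before the start left out of account, was found in 11 members (20.4%), against 3.0% of the 7942 genes on the array that are in the table. These were Rpl14, Rpl28, Rpl35, Rpl38, Rplp2, Rps6, Rps10, Rps15a, Rps18, Rps21 and Rps27. For the 8 members with several starts, as for other genes, a match at any start was counted. The ETS-type motif CCGGAAG, searched on both strands of the whole window from 250 bases before to 50 after the start, was found in 23 members (42.6%) against 18.0% of the genes on the array, and 7 members had both features. Read on the other strand, this motif holds pyrimidines and can overlap a start run. Shown here are 4 members with a start run, namely Rps6, the substrate of S6 kinase, Rpl35 with the longest run, and Rps27 and Rplp2, 2 of the 8 members that passed the test for a dye effect described further on. They are followed by the other 5 of those 8 with an entry, which have no start run of this length. The runs from the first base of Rps28, Rpl27 and Rpl31 are shorter, and Rpl36al begins with G. Rpl7a, whose start lies in a longer pyrimidine stretch, begins with T. Each line gives 15 bases on either side of the start, 5′ to 3′, with capitals for the run from the first transcribed base onward.
Rps6, chr4:86857353-86857382, minus strand: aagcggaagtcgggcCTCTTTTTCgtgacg
Rpl35, chr2:39005117-39005146, minus strand: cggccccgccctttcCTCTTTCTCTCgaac
Rps27, chr3:90213634-90213663, minus strand: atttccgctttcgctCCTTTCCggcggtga
Rplp2, chr7:141447636-141447665, plus strand: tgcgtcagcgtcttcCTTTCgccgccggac
Rpl36al, chr12:69184053-69184082, minus strand: cattcccgtcgctcaggttcagttccgact
Rps28, chr17:33824548-33824577, minus strand: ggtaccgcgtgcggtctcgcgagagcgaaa
Rpl27, chr11:101442230-101442259, plus strand: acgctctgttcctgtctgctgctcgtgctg
Rpl31, chr1:39367836-39367865, plus strand: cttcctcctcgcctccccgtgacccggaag
Rpl7a, chr2:26910792-26910821, plus strand: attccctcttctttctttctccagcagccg

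The data are log2 ratios of the 2 RNAs, so they hold differences and no levels, and whether the line carries the defining markers of ES or lymphoid cells could not be read from them. A ratio above 0 is read here as more RNA in the treated cells, but the direction of the deposited ratio is not settled. For each gene, a model over all arrays gave 2 quantities on the log2 scale. The treatment estimate is the mean of both dye orientations, in which a bias of the dyes cancels. The dye effect is 0.5 times the difference between orientations (treated in Cy5 minus treated in Cy3). If the dye swaps were deposited unturned, these 2 quantities exchange their roles. Each array gave 19213 to 19973 measured probe values, with medians between -0.019 and 0.063. Of 1410 possible values at the members' probes, 1376 were measured. Of these, 4.65% were flagged as dim because their ratio equals one of small whole numbers, against 10.3% of all probe values. The flag rests on the ratio alone, without spot intensities. All 62 members could be tested, 60 of them with values on all 15 arrays, while Rpl9 had values on 12 and Rps18 on 9. Arrays 7, 8 and 15 stand apart. They held 17, 30 and 39 placeholder values for an empty channel against 130 to 239 on the others. Correlations between arrays over probes were low throughout. The highest with any other array was r = 0.034 for array 15, 0.083 for arrays 7 and 8, and 0.13 to 0.32 for the others.

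No ribosomal protein gene passed the test for the treatment estimate. Of 9720 genes tested, 4 passed (0.0412%), none of them a member, and the smallest adjusted p of a member was 0.673 (limma, Benjamini-Hochberg over all genes, two-sided). At an unadjusted p under 0.05 there was 1 member, Rpl10a, or 1.61% of the members against 7.02% of all genes. The members' estimates lay between -0.24 and 0.19, with a median of -0.019 beside 0.0054 for all genes tested. They fell on both sides of 0, with 36 below and 26 above, and 48.0% of all genes were below. This balance turned without arrays 7, 8 and 15, when 21 of 61 members were below 0 and the median was 0.024.

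The members were measured more tightly than the average gene. The standard error of their treatment estimate had a median of 0.067 (range 0.048 to 0.26), against 0.090 for all genes, and their estimates had a median size of 0.044 against 0.075. For 43 members the estimate lay within 1 standard error of 0, and for 60 within 2. Medians by class were -0.027 for the 31 large-subunit and -0.019 for the 22 small-subunit proteins, while the 3 stalk proteins had -0.078 and the 5 paralogues 0.040. Members with and without a TOP-like start had medians of -0.019 (11 genes) and -0.018 (43 genes). This split reads the annotated first base alone, so members without such a start may still carry a TOP tract.

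**Figure D1:**
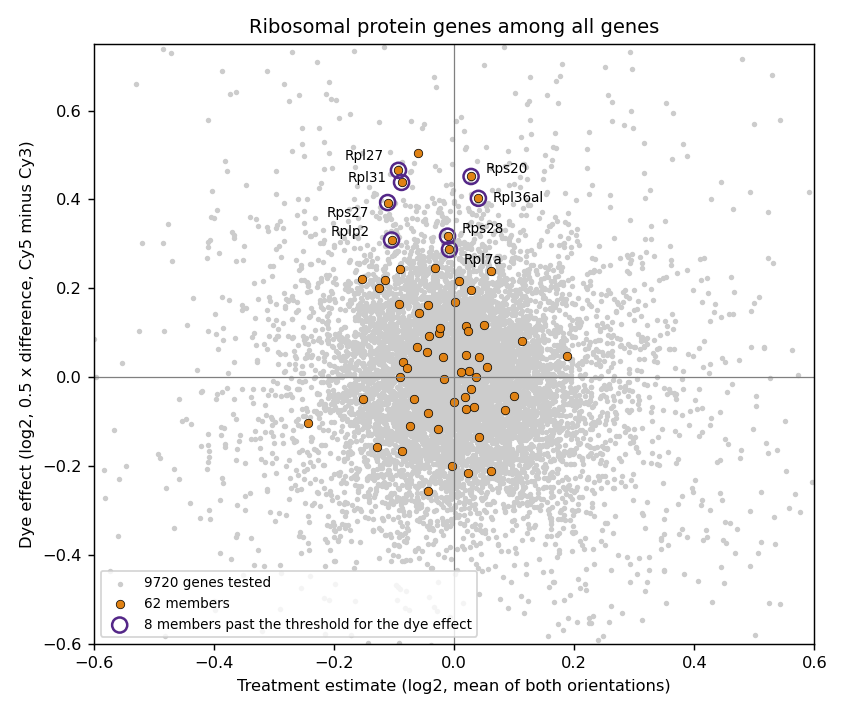
Treatment estimate (horizontal axis, log2, mean of both dye orientations) and dye effect (vertical axis, log2, 0.5 times the difference Cy5 minus Cy3) of the 9720 genes tested (grey, those beyond the axes not drawn) and the 62 ribosomal protein genes (orange). The members stay between -0.24 and 0.19 on the treatment axis, and the 8 circled ones, which passed the test for the dye effect, all lie above 0 on the dye axis.

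Among the large-subunit proteins, Rpl10a, a protein of the L1 stalk, had the smallest p. Its log2 ratios with the treated RNA in Cy5 were -0.28 at the lowest, 0.12 at the median and 0.26 at the highest, and with the treated RNA in Cy3 they were -0.73, -0.32 and -0.046. It was below 0 on all 7 dye swaps but on only 3 of the 8 other arrays, and the orientations overlapped. Its treatment estimate was -0.15 ± 0.06 (SE, n = 15 arrays). Rpl19, which takes part in a bridge between the subunits, had the smallest p above 0, at 0.11 ± 0.06, with 9 arrays above 0 and 6 below. Rpl13a, a protein that is also released from the ribosome in the interferon response, was at -0.085 ± 0.060 and below 0 on 9 arrays. None of these passed the threshold.

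The small-subunit proteins gave the widest estimates in both directions. Rps18 was at -0.24 ± 0.21 from only 9 arrays, with 5 of these values flagged as dim and single values from -1.31 to 0.66. Rps13 was at 0.19 ± 0.12, with 9 arrays above 0 and values from -0.52 to 0.98. Of its 2 probes, 1 was at -0.0014 ± 0.0533 and the other, with 6 of 15 values flagged as dim, at 0.38 ± 0.22. The spreads of Rps18 and Rps13 cover 0, whereas Rps24 and Rps14 stayed close to it, at -0.018 ± 0.052 and 0.054 ± 0.053. Rps3a1 was at -0.091 ± 0.063 and Rps27 at -0.11 ± 0.08, below 0 on 11 and 9 arrays (-0.048 without array 14 and -0.056 without array 15). Rpsa, which is also known as the laminin receptor precursor, had an estimate nearest to 0 (SE 0.092) and had the largest p of all members.

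The proteins that act outside the ribosome or in its signalling did not pass either. Those that hold Mdm2 in check were at -0.13 ± 0.10 (Rpl5), -0.044 ± 0.052 (Rpl11) and -0.041 ± 0.049 (Rpl23), and without array 15 Rpl5 was at -0.038. Rps6, the target of S6 kinase, was at -0.090 ± 0.091 (-0.024 without array 7), and Rps19 at -0.090 ± 0.065. Rpl22 was at -0.15 ± 0.11, and this value leans on 2 arrays, array 7 at -1.38 and array 15 at -0.95, while its other values lay between -0.23 and 0.19; without array 7 the estimate was -0.068. Of the stalk, which recruits the translation factors that split GTP, Rplp0 was at 0.061 ± 0.237 and turned to -0.15 without array 1, Rplp1 at -0.078 ± 0.066 and Rplp2 at -0.10 ± 0.08. Rps19bp1, the only symbol in the list that names no ribosomal protein, was at 0.050 ± 0.055.

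The dye effect, in contrast, passed the test in 8 members, all above 0. Across all genes 254 passed (2.61%), 187 above 0 (1.92%) and 67 below (0.689%), so the members' share was 12.9%. At an unadjusted p under 0.05 it was 25 members (40.3%) against 19.5% of all genes. The 8 genes are Rpl27, Rpl31 and Rpl7a of the large subunit, Rps20, Rps27 and Rps28 of the small subunit, Rplp2 of the stalk, and the paralogue Rpl36al. Rpl31 and Rpl7a fall outside the rule for named genes and were added after their values were seen. Rps18 and Rps24, described above, also lie outside that rule. Over all members the median was 0.048, with 41 above 0 and 21 below, beside -0.0034 and 49.2% above for all genes. The median absolute dye effect was 0.11 against 0.10 for all genes, and 20 members (32.3%) reached 0.2 in size, 16 above 0 and 4 below, against 22.3% of all genes.

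In 4 members the 2 orientations did not overlap at all, 6.45% against 1.44% of all genes. Rpl36al, encoded by a near copy of Rpl36a, lay between 0.28 and 0.54 with the treated RNA in Cy5 (median 0.50) and between -0.69 and -0.070 with it in Cy3 (median -0.38). All of its 8 arrays of the first kind were above 0 and all 7 of the other below, giving a dye effect of 0.40 ± 0.05 (SE, adjusted p = 0.00415). Rps20, a protein of the small subunit's head, ran from 0.16 through 0.38 to 0.92 and from -0.67 through -0.44 to -0.26 (lowest, median, highest). Its dye effect was 0.45 ± 0.07 (adjusted p = 0.00415). Rps28 split the same way, at 0.090, 0.34 and 0.47 against -0.56, -0.36 and -0.053, with 0.32 ± 0.05 (adjusted p = 0.00870). Rps27, a zinc finger protein, had 2 arrays of the first kind below 0, arrays 7 and 8, yet still no overlap, since its values were -0.13, 0.42 and 0.48 against -1.16, -0.48 and -0.17. Its dye effect was 0.39 ± 0.08 (adjusted p = 0.0172).

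In the other 4 the orientations overlapped through a few arrays. Rpl27 was between 0.027 and 0.92 on 7 arrays of the first kind and at -0.61 on array 7, against -0.80 to -0.31 on the dye swaps. The dye effect was 0.47 ± 0.10 (adjusted p = 0.0201). Rpl31, which lies at the exit of the peptide tunnel, went from -0.17 to 0.90 against -0.87 to 0.022, with 0.44 ± 0.09 (adjusted p = 0.0236). Its low values of the first kind were again arrays 7 and 8. Rplp2, which forms the stalk's acidic tips with Rplp1, went from -0.32 to 0.57 against -0.83 to -0.072, with 0.31 ± 0.08 (adjusted p = 0.0420). Rpl7a went from -0.19 to 0.63 against -0.60 to 0.067, with 0.29 ± 0.07 (adjusted p = 0.0462). Leaving out each array in turn, 5 of the 8 (Rpl27, Rpl36al, Rps20, Rps27 and Rps28) passed in all 15 fits, Rpl31 in 12, Rpl7a in 4 and Rplp2 in 3, and the count was 5 without array 5 and 5 without array 14, where 1.07% and 1.17% of all genes passed.

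**Figure D2:**
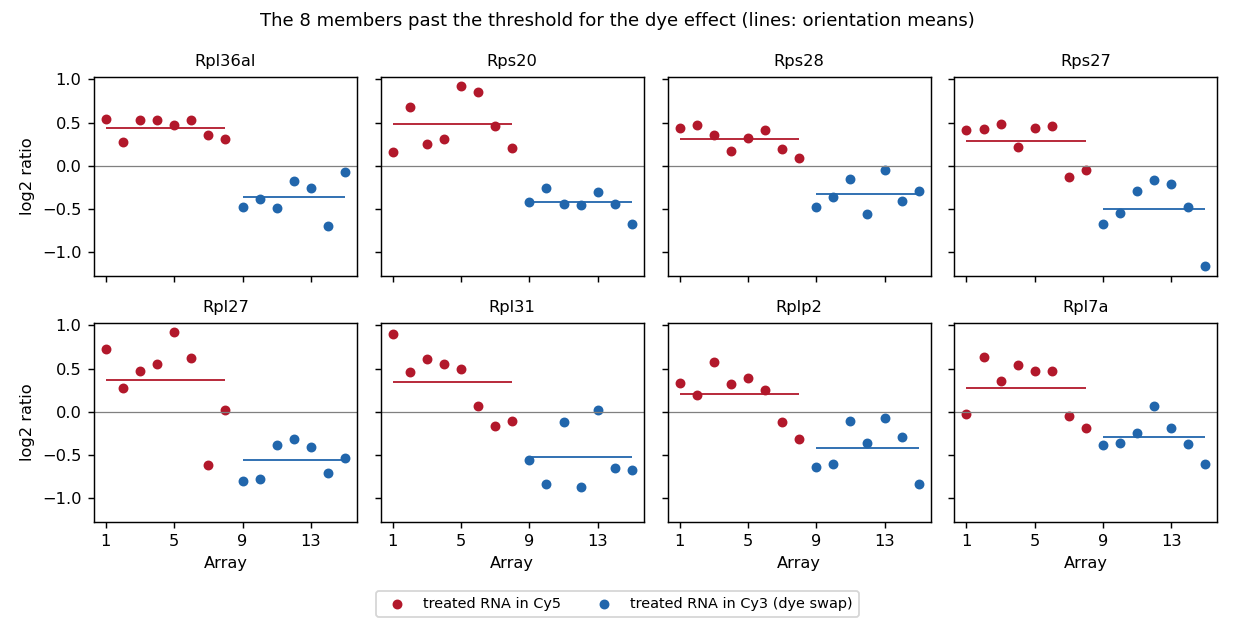
Log2 ratio (vertical axis) on each array (horizontal axis, number in the sample title) for the 8 members that passed the test for the dye effect, with the treated RNA in Cy5 (red, arrays 1 to 8) or Cy3 (blue, arrays 9 to 15) and lines at the mean of each orientation. Rpl36al, Rps20, Rps28 and Rps27 show no overlap of the orientations, and arrays 7 and 8 sit low among the red points of Rpl27, Rpl31, Rplp2, Rpl7a and Rps27.

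In the fit of all arrays no member passed with a dye effect below 0. The nearest were Rps12 at -0.20 ± 0.06 (adjusted p = 0.0941), Rpl36a at -0.26 ± 0.08 (adjusted p = 0.0975), and Rpl6 at -0.21 ± 0.07 (adjusted p = 0.0975), followed by Rpl32 at -0.13 ± 0.05 and Rpl27a at -0.21 ± 0.08. Under other settings some did pass: Rpl36a without arrays 7, 8 and 15 and, together with Rpl6, with array weights, and Rps9 and Rplp0 when the most measured probe stood for each gene. The values of Rpl36a ran opposite to those of the called members: it was above 0 on all 7 dye swaps, up to 0.40, and below 0 on 6 of the other 8 arrays, down to -0.99. Just outside the threshold above 0 were Rps19 at 0.24 ± 0.07 (adjusted p = 0.0590) and Rpl10a at 0.22 ± 0.06 (adjusted p = 0.0714). The spread of single members differed widely, from a standard deviation over arrays of 0.15 for Rpl39, a small protein of the peptide tunnel, to 0.995 for Rplp0, whose array 1 stood at 3.24 with all others between -1.15 and 0.59. The median over members was 0.30, against 0.37 over all genes.

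Probes of one gene often disagreed in the dye effect, among all genes as among the members. Of the 24 members with several probes, all probes lay on one side of 0 in 8 for the dye effect and in 10 for the treatment estimate. The share over all genes was taken for pairs of probes only. Among the 18 with exactly 2 probes, 7 pairs shared the sign of the dye effect (38.9%, against 49.5% of 2107 such pairs over all genes) and 9 that of the treatment estimate (50.0% against 51.3%). Rps28 is the only one of the 8 called genes with more than 1 probe. One of its probes was at 0.64 ± 0.08 and the other at -0.0023 ± 0.0593, so its call rests on 1 probe. With each probe fitted on its own, 19 of the 94 member probes passed for the dye effect (20.2%, against 2.74% of 19863 probes), 16 above 0 and 3 below, from 18 genes.

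The genes with 3 or more probes show how far the clones of one mRNA can part. Rpl14 had called probes on both sides, at -0.24 ± 0.06 and 0.24 ± 0.06, and 1 uncalled at 0.15 ± 0.07. Rpl4 had 1 called probe at 0.34 ± 0.07 beside 2 at -0.023 and 0.023, and Rps26 had 1 called probe at 0.35 ± 0.07 beside 2 at -0.15 and 0.20. Only Rpl8 was even in the dye effect, with 0.084, 0.10 and 0.11, none called, while the treatment estimates of its probes ran from -0.15 to 0.12. Rpl35 had the largest dye effect of any member, 0.50 ± 0.18, without passing (adjusted p = 0.143), and 1 of its 3 probes, measured on 11 arrays, was at 1.83 ± 0.65 while the others were at -0.15 and 0.31. The 5 probes of Rps21 ran from -0.21 to 0.51, none called. Of the 2 probes of Rplp0, that at -0.24 ± 0.06, measured on 15 arrays, was called below 0. The other, measured on only 10 arrays, was at 1.19 ± 0.66, and the average of both gave 0.24 ± 0.24. Ribosomal protein genes have many processed pseudogenes and near copies, and cross-hybridisation between these was not tested.

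**Figure D3:**
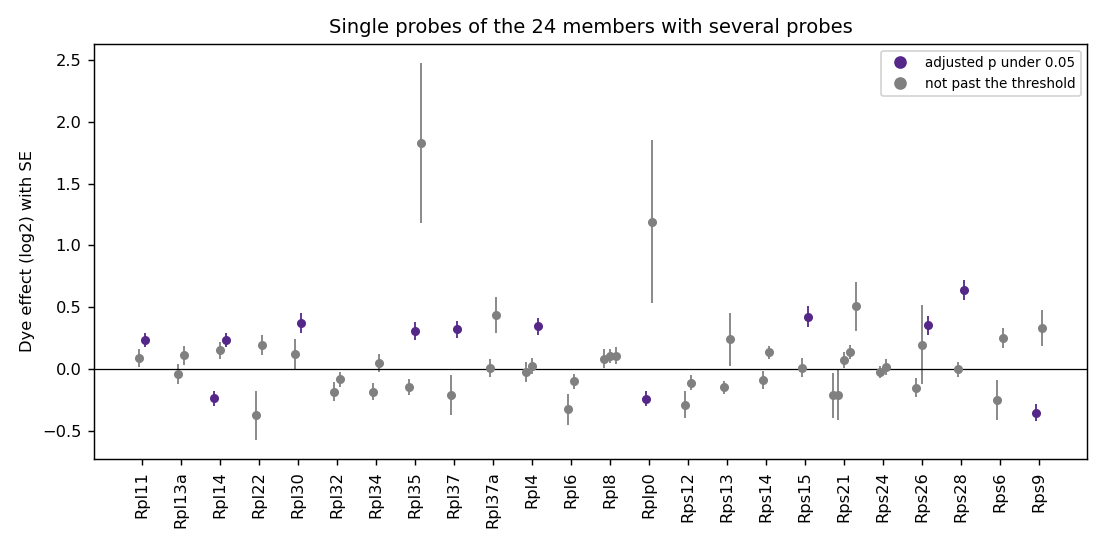
Dye effect (vertical axis, log2) with its standard error for every probe of the 24 members with several probes (horizontal axis, gene), purple where the adjusted p of the fit of single probes is under 0.05. Probes of one gene lie on both sides of 0 in 16 of the 24 genes, and Rpl14 has called probes on both sides.

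Paralogues did not follow their parents in every pair. Rps27 had a dye effect of 0.39 ± 0.08 and its p53-induced paralogue Rps27l 0.10 ± 0.06 (adjusted p = 0.328). Rpl36al was called above 0 while Rpl36a, whose protein is nearly the same, was at -0.26. The remaining pairs had no call, with Rpl22 at -0.048 and Rpl22l1 at -0.16, Rpl39 at 0.015 and the testis-expressed Rpl39l at -0.042, and Rpl7 at -0.081 and Rpl7l1 at -0.074. Differences within pairs were not tested. In the treatment estimate, Rpl22 and Rpl22l1 were at -0.15 ± 0.11 and -0.13 ± 0.06, Rpl7 and Rpl7l1 at -0.044 ± 0.073 and 0.085 ± 0.079, Rpl39 and Rpl39l at 0.025 ± 0.050 and 0.099 ± 0.137 (Rpl39l at -0.023 without array 9), Rps27 and Rps27l at -0.11 ± 0.08 and 0.023 ± 0.055, and Rpl36a and Rpl36al at -0.044 ± 0.082 and 0.040 ± 0.052. Rpl22l1 was below 0 on 11 of 15 arrays without passing (adjusted p = 0.724). Rps4x, the X-linked form of Rps4, was also below 0 on 11 arrays, at -0.074 ± 0.073.

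Array by array, the median of the members had a standard deviation of 0.12 over the 15 arrays. The same quantity was 0.12 for the subunits of the respiratory chain and ATP synthase, 0.11 for translation factors and other TOP mRNAs, and 0.087 for mitochondrial ribosomal proteins. With the treated RNA in Cy5 it lay between -0.17 and 0.18, above 0 on 6 arrays and below on arrays 7 and 8. On the dye swaps it lay between -0.20 and 0.022, above 0 on array 12 alone. The lowest medians, -0.20 on array 15 and -0.17 on array 8, come from 2 of the 3 arrays that stand apart, and on these 49 and 47 of 62 members were below 0. On array 5, by contrast, 46 of 62 were above. With these 3 arrays left out, no member passed for treatment, and 12 of 61 (19.7%) passed for the dye effect, 11 above 0 and Rpl36a below, among them all 8 named above. In that fit 5.98% of all genes passed for the dye effect.

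**Figure D4:**
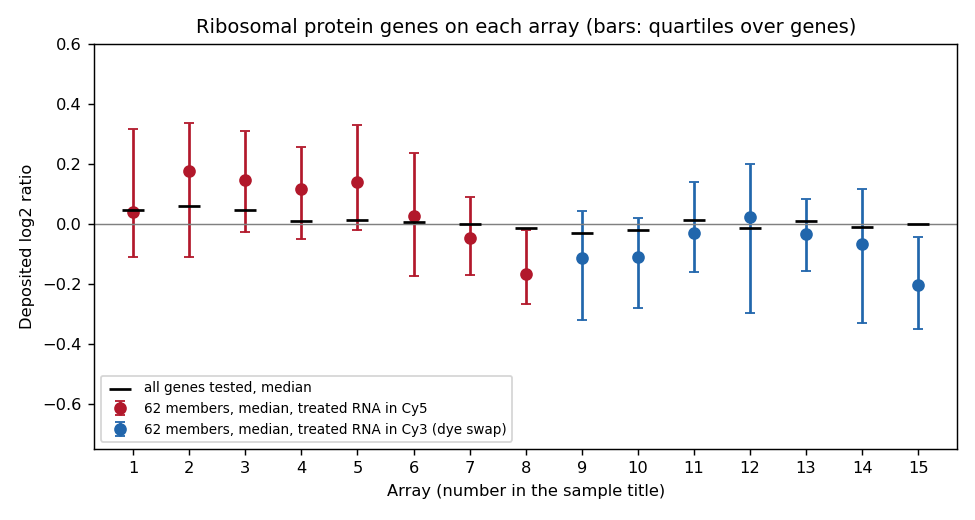
Median log2 ratio (vertical axis) of the ribosomal protein genes on each array (horizontal axis, number in the sample title), with bars from the lower to the upper quartile over genes, with the treated RNA in Cy5 (red) or Cy3 (blue), and the median of all genes tested (black dash). Red medians are above 0 on arrays 1 to 6 and below on 7 and 8, blue ones are below 0 except on array 12, and the lowest is -0.20 on array 15.

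Pairs of members were more correlated from array to array than pairs of all genes. Over the 60 members with values on all arrays, the mean correlation of pairs was 0.12 over the 15 arrays, and 0.12 again after the mean of each orientation was removed, against 0.0048 and 0.0056 for all genes. Without arrays 7, 8 and 15 the latter value was 0.033 for the members and 0.00097 for all genes, and it was 0.056 for translation factors and other TOP mRNAs, 0.042 for the respiratory chain and ATP synthase and 0.0080 for mitochondrial ribosomal proteins. These correlations describe genes that share arrays and hybridisations, and they carry no test. For the mitochondrial ribosomal proteins, which are encoded by other nuclear genes and translate the mitochondrial mRNAs, the values over all 15 arrays were 0.017 and 0.0060. For the subunits of the respiratory chain and ATP synthase they were 0.10 and 0.082, and for translation factors and other TOP mRNAs 0.10 and 0.087.

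Other genes of the translation pathway had no call for treatment. Of 44 translation factors and other TOP mRNAs listed, 34 were tested, with a median treatment estimate of -0.022 (22 below 0). Their dye effect had a median of 0.066, and 3 of the 34 passed, all above 0, beside 2.61% of all genes. These were Eif3e and Eif3h, subunits of the initiation factor eIF3, at 0.42 ± 0.06 (adjusted p = 0.00415) and 0.29 ± 0.07 (adjusted p = 0.0407), and Naca, of the nascent polypeptide-associated complex, at 0.37 ± 0.06 (adjusted p = 0.00870). The smallest p for treatment in that list belonged to Fau, whose product is cleaved to a small-subunit protein, at -0.15 ± 0.09, to the cap-binding factor Eif4e at 0.16 ± 0.09, and to the helicase Eif4a1 at -0.10 ± 0.06, none of which passed.

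Factors that build ribosomes showed medians near 0 in both quantities, 0.015 for treatment and -0.0021 for the dye effect over 45 of 63 listed genes. Fbl, the methyltransferase fibrillarin, was the only one of the 45 called for the dye effect, at 0.22 ± 0.06 (adjusted p = 0.0470). Of all genes, 2.61% were called for it. Wdr12 was at 0.56 ± 0.15 (adjusted p = 0.0588) and Utp20 at 0.14 ± 0.05 (adjusted p = 0.102). For treatment the smallest p were those of Taf1c and Polr1a, both of the RNA polymerase I machinery, and Nop14, at 0.41 ± 0.15, -1.14 ± 0.37 and 0.31 ± 0.14, without passing, and Polr1a was measured on 8 arrays. Regulators of ribosomal protein synthesis (18 of 26 listed) had medians of 0.0093 and 0.041 and no call in either quantity. The smallest p among them were those of Zbtb7a at -0.18 ± 0.07, Rictor, of mTOR complex 2, at 0.14 ± 0.06, and Mlst8, shared by both mTOR complexes, at -0.14 ± 0.06 for treatment. For the dye effect they were Zbtb7a at 0.21 ± 0.07, Lamtor1 at 0.21 ± 0.07 and Mdm2 at 0.16 ± 0.06.

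Positive dye effects were also called outside the cytosolic ribosome. Of 63 mitochondrial ribosomal proteins tested, 3 passed above 0 (Mrps9 at 0.35, Mrpl34 at 0.27 and Mrpl47 at 0.22) and 1 below (Mrpl53 at -0.71). Their median was 0.052, with 45 above 0. Of 77 subunits of the respiratory chain and ATP synthase, 13 passed, all above 0, led by Atp5g3 and Atp5e of ATP synthase at 0.54 ± 0.06 (adjusted p = 0.000947) and 0.51 ± 0.08 (adjusted p = 0.00708). Their median was 0.061. Beside these counts stand 8 of 62 members and 254 of 9720 genes (2.61%) that passed for the dye effect. No member of either list passed for treatment, with medians of -0.0091 and 0.014, and whether the lists differ was not tested.

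Marker lists of cell types held no call for treatment. Median treatment estimates were 0.052 for pluripotency genes (7 of 11 listed were tested), 0.072 for B-cell genes (4 of 9), 0.080 for T-cell genes (5 of 9), -0.14 for myeloid genes (7 of 10), -0.073 for erythroid genes (3 of 7) and 0.061 for fibroblast genes (8 of 8). All 7 myeloid genes were below 0, between -0.30 and -0.033, beside 48.0% of all genes below 0. For the dye effect 1 of the 7 passed, above 0, beside 2.61% of all genes. The part of these lists in the members' values was not tested.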

How the data were processed

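The authors' deposited table holds log2 ratios of 2 channels for 20205 probes on 15 arrays. Their scale follows from the values. How the authors corrected background, normalized and filtered spots, and which way they divided, was not stated in any label or file header. Values beyond 10 in absolute log2 are placeholders for an empty channel (1999 in all, 15 at member probes) and were set missing.

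Gene symbols came from the platform annotation (1 symbol for 13891 probes, several for 5, none for 6309), updated through a RefSeq table (GRCm38.p6) that matched 13855 identifiers. Probes of a gene were averaged on each array. A gene needed at least 4 values in each orientation to enter the fit (limma 3.58.1 in R 4.3.3, lmFit and eBayes), with the mean of both orientations and 0.5 times their difference as terms, no further normalization, and Benjamini-Hochberg adjustment over all 9720 genes. An adjusted p under 0.05 was the threshold, and tests were two-sided. The number of arrays limits the precision.

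A spot was called dim where its ratio equalled, within 0.0015 in log2, that of whole numbers up to 6 plus the array's constant. Named members are the 5 smallest p in each direction for each quantity, the stalk proteins and Rpsa, the members with known roles in signalling or disease, paralogues with their parents, genes with 3 or more probes, and those with the largest and smallest spread. Rpl31 and Rpl7a were added to them after their values were seen. A few other members, such as Rps18 and Rps24, are described outside this rule. From the other lists, genes past the threshold and the 3 smallest p were eligible. The members and lists were chosen with earlier results of these data known. Alternatives covered the direction, the orientations and arrays, placeholders, missing values, normalization, probes, weights, prior, dye term, dim values and paralogues.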

Additional observations from a re-analysis of the deposited data

Results flagged for a closer look

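Within one dye orientation, 10 of 86 groups of values (those of the 42 named members and of the members' median) held 1 array far from the others by Dixon's criterion, and chance flags about 1 in 20 groups. With the treated RNA in Cy5, array 7 was low for 3 genes: Rpl22 at -1.38 (others -0.23 to 0.19), Rps6 at -1.02 (others -0.24 to 0.29) and Rps21 at -0.48 (others -0.037 to 0.26). In the same orientation Rpl32 was at -0.35 on array 8 (others -0.13 to 0.043), and Rplp0 was at 3.24 on array 1 (others -0.34 to 0.59). On the dye swaps, array 15 was low for Rpl5 at -1.38 (others -0.39 to 0.080) and for Rpl22 at -0.95 (others -0.22 to 0.15). Array 12 was low for Rps6 at -0.70 (others -0.086 to 0.17) and high for Rps4x at 0.61 (others -0.15 to 0.073). Array 14 was low for Rps3a1 at -0.77 (others -0.29 to -0.057). Of these 10 values, 6 lie on arrays 7, 8 and 15.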

How the results depend on the processing

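No member passed for treatment in any of the settings tried except that with the dye swaps turned, where the quantities exchange: 8 members then passed for treatment, where 254 of 9720 genes did (2.61%), and 0 for the dye effect, with 21 below 0 in the treatment estimate and 26 above 0 in the dye effect. Treatment estimates under that setting were 0.47 for Rpl27, 0.44 for Rpl31, 0.29 for Rpl7a, 0.31 for Rplp2, 0.39 for Rps27 and 0.32 for Rps28, and dye effects -0.093, -0.088, -0.0078, -0.10, -0.11 and -0.011 in the same order; Rpl36al was at 0.40 and Rps20 at 0.45 for treatment, with dye effects of 0.040 and 0.028. The number of members below 0 for treatment was 21 with the treated RNA in Cy5 alone and 21 without arrays 7, 8 and 15, and the median was 0.063 with Cy5 alone, -0.093 with Cy3 alone and 0.0011 with array weights. Leaving out each array in turn, 31 to 39 members were below 0 for treatment, with medians of -0.029 to -0.0016, and 0 passed. In these fits 5 to 9 members passed for the dye effect, with 38 to 43 above 0 and medians of 0.036 to 0.070. The share of all genes that passed for the dye effect ran from 1.02% without array 6 to 4.46% without array 7, where 9 members passed. For the dye effect, 12 members passed with array weights (19.4% against 6.95% of all genes, 10 above 0). Without arrays 7, 8 and 15 there were 12 (19.7% against 5.98%, 11 above 0). With the most measured probe of each gene there were also 12 (19.4% against 3.47%, 10 above 0), 7 of the 12 being among the 8. With probes fitted singly, 19 of 94 member probes passed (20.2% against 2.74% of 19863 probes), from 18 genes. The share of all genes with a passing probe was not taken. With the most measured probe Rplp0 was at -0.24 (adjusted p = 0.0415) and Rps28 at -0.0023. The cause of these changes was not tested. No paired analysis was possible because the labels do not say which arrays share an RNA extract.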
